A study of Mus musculus with 2 samples.

Results

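The genes described here are 29 markers of microglia and of brain vessels, 14 microglia genes and 15 vascular genes, out of 21938 protein-coding genes on the chromosomes analysed. They were chosen by name as markers of these cells, with earlier results of these data known. The vascular genes comprise 11 endothelial genes and 4 pericyte genes. CTCF binding was measured with ChIP-seq, which sequences the DNA bound to an immunoprecipitated protein, in whole forebrain of B6NCrl mice on postnatal day 0, pulverized and pooled from several dissections, with sex not recorded. The series held 1 group of 2 libraries, replicate 1 and replicate 2, and no second condition, so no difference between conditions was tested. Both libraries cite the same biosample and donor, so their spread may be technical. A called site is a peak of the authors' optimal list, which kept 56470 peaks under a threshold on the irreproducible discovery rate, and the 56462 of them on placed chromosomes were used. Read depth is unknown.

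CTCF recognises a long, directional DNA motif through its zinc fingers and, with cohesin, holds the bases of chromatin loops, most often where a pair of motifs points towards each other. Microglia are the resident macrophages of the brain, which clear debris and prune synapses. Endothelial cells line brain vessels and seal them with tight junctions, and pericytes wrap the capillaries. Both classes are a minority in forebrain tissue, and CTCF occupies many of its sites in most cell types. A peak list holds no expression values, so the cell types could not be checked by their markers. Which cells of the tissue carried a site cannot be told apart in these libraries.

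CTCF sites were sparse at the starts of these genes but present around all of them. A summit lay within 1 kb of a transcription start site (TSS) in 2 of 14 microglia genes (C1qa and Irf8) and in 3 of 15 vascular genes (Slc2a1, Esam and Ocln), against 36.8% of all protein-coding genes. A summit lay inside the gene in 4 of 14 microglia genes and 10 of 15 vascular genes, against 53% of all protein-coding genes. With the authors' conservative list the vascular count was 7 of 15, against 52.3%. Within the gene or 50 kb of it, all 14 microglia genes and all 15 vascular genes had at least 1 summit, against 86.8% of all protein-coding genes. The median signal value was 134 over the 77 sites of microglia genes and their flanks, against 60.4 over 80 sites around the vascular genes and 64.3 over the optimal list. The signal value is the strength that the authors' peak caller wrote for each peak. Its scale was not stated, so it serves here to rank and describe peaks.

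**Figure D1:**
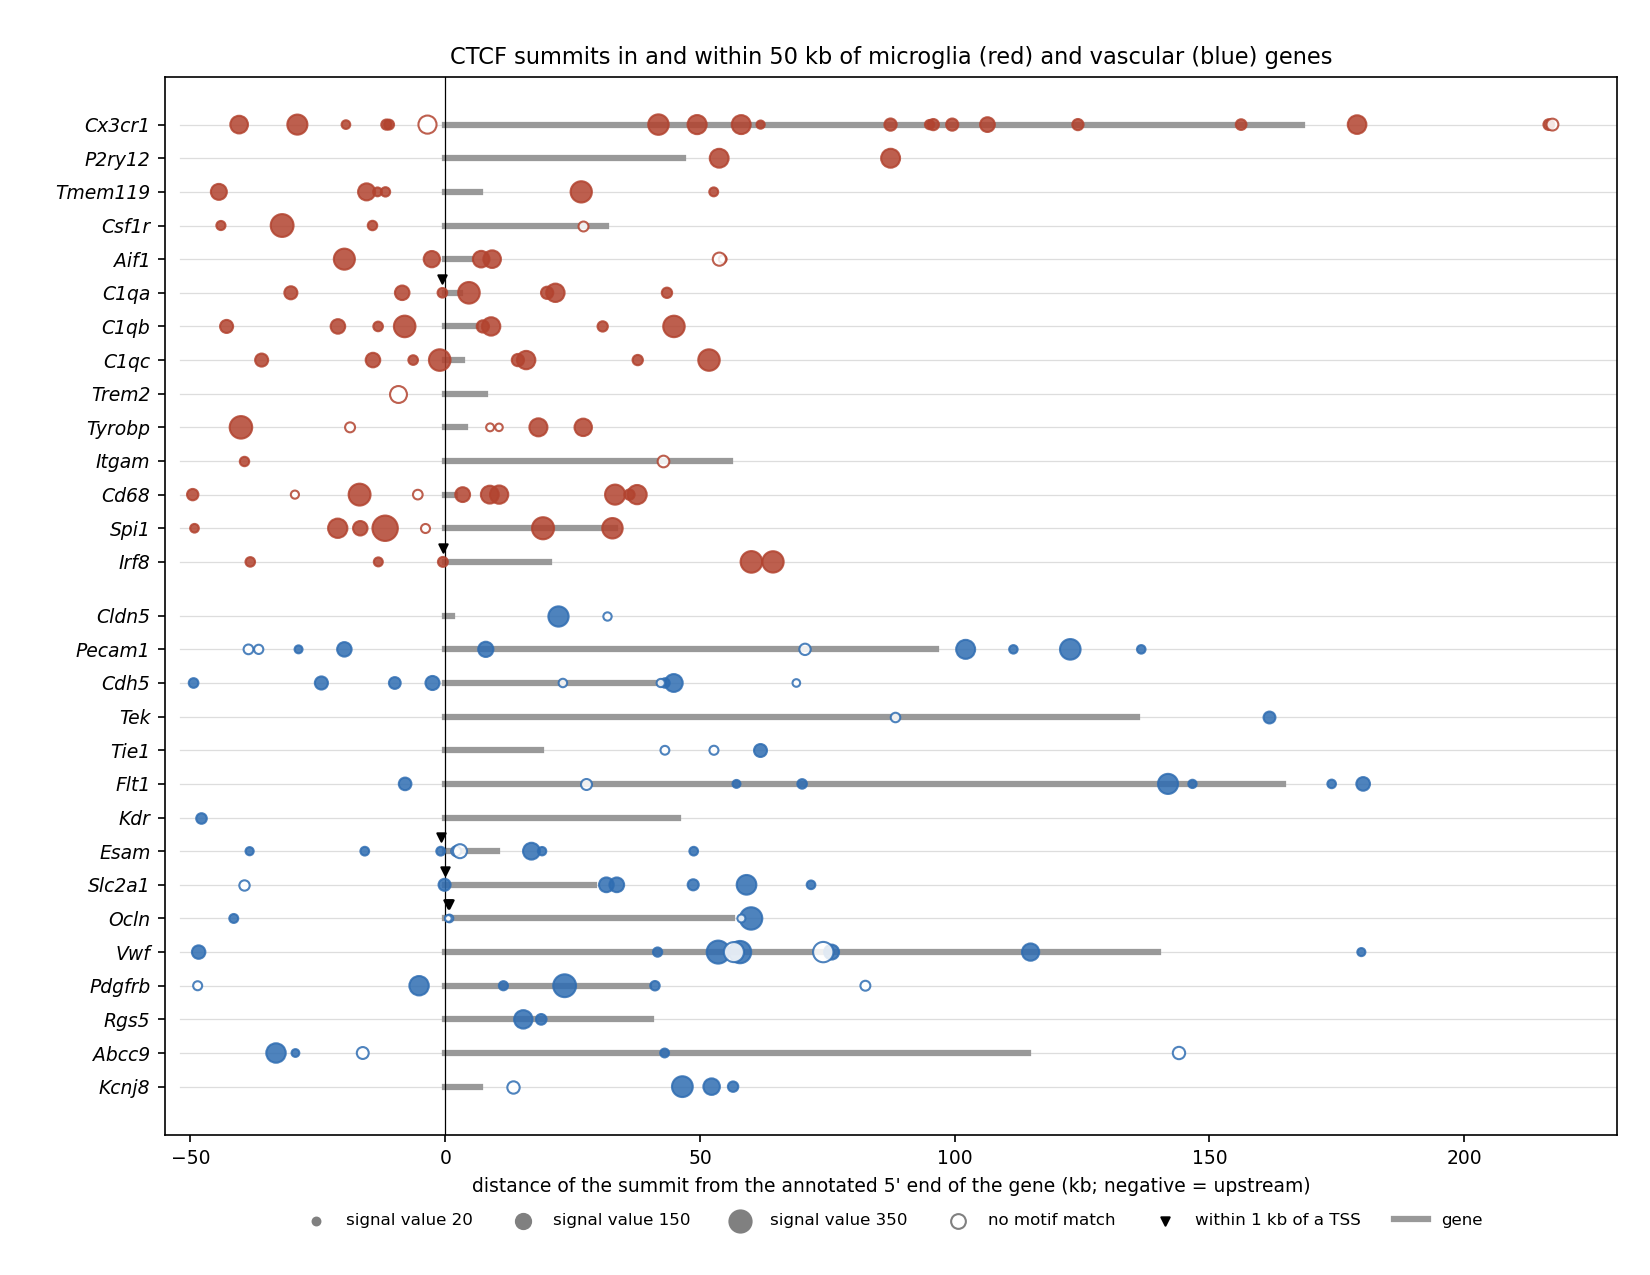
Each row is a gene, with microglia genes in red above vascular genes in blue, and each circle is a CTCF summit in the gene or within 50 kb, placed by its distance in kb from the annotated 5′ end. Circle area follows the signal value, open circles have no motif match, grey bars are the genes, and black triangles mark the summits within 1 kb of a TSS. Only 2 microglia genes and 3 vascular genes carry a triangle, while every gene has a circle.

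The sites at the gene starts are shown first, as 50 bases of GRCm38 (mm10) around the CTCF core motif, because they are the only sites of the 29 genes that lie within 1 kb of the gene's own TSS and hold the motif. The sequence was read from the RefSeq copy of the genome, 5′ to 3′ along the strand of the motif, and capitals mark the 14 bases of the match. A match allowed up to 2 mismatches and lay within 50 bp of the summit on either strand.
C1qa, chr4:136899327-136899376, + strand: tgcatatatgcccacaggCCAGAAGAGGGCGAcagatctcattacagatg
Irf8, chr8:120735876-120735925, + strand: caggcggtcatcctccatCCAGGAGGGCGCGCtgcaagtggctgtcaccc
Slc2a1, chr4:119108562-119108611, - strand: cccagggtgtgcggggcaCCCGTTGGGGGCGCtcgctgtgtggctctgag
Esam, chr9:37527152-37527201, + strand: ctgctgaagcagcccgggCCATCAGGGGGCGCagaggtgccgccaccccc
The Esam match had 1 mismatch to the core motif, and the other matches at gene starts had 2 each. The Ocln summits held no match.

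The next set holds strong sites away from the starts, on which the accounts of the single genes below rest. Each had 0 or 1 mismatches except the site near Spi1, which had 2 and was the strongest site of all 29 genes.
Spi1, before the gene, chr2:91070578-91070627, + strand: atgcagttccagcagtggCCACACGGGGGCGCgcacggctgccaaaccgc
Spi1, intron, chr2:91101565-91101614, - strand: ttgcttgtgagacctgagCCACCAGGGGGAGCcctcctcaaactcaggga
C1qc, upstream, chr4:136894104-136894153, + strand: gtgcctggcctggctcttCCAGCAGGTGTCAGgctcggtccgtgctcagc
Cx3cr1, long intron, chr9:120020411-120020460, + strand: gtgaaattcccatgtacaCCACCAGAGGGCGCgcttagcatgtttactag
Aif1, upstream, chr17:35178669-35178718, + strand: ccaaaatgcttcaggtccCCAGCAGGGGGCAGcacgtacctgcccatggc
Vwf, intron, chr6:125600336-125600385, - strand: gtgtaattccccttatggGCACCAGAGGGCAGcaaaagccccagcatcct
Flt1, intron, chr5:147584111-147584160, + strand: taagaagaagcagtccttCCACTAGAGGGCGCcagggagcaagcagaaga
Rgs5, intron, chr1:169670805-169670854, + strand: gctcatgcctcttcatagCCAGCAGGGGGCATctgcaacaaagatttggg
Kcnj8, downstream, chr6:142525041-142525090, + strand: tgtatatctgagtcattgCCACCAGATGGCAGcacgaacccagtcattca

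Both promoter sites of the microglia genes had similar values in the replicates. C1qa encodes a chain of complement C1q, the molecule that tags synapses and debris for removal. Its site lay 552 bp upstream of the TSS, in DNA between genes, with a signal value of 44.3, and read 25.1 in replicate 1 and 22.4 in replicate 2. Irf8 encodes a transcription factor that myeloid cells need to become microglia. Its site lay 453 bp upstream of the TSS with a signal value of 48.9, and read 27.3 in replicate 1 and 24.2 in replicate 2. Both values fall below the median of the optimal list, 64.3, and close to the median of all sites within 1 kb of a protein-coding TSS, 48.1.

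Among the vascular genes, Slc2a1 had the strongest promoter site. It encodes GLUT1, the glucose transporter of the blood-brain barrier. The summit lay 126 bp upstream of the TSS with a signal value of 84.2, and read 47.1 in replicate 1 and 34.6 in replicate 2. Esam encodes an adhesion molecule of endothelial junctions. Its site lay 885 bp upstream with a signal value of 32.7, and read 13.9 in replicate 1 and 19.4 in replicate 2. Ocln encodes occludin, a membrane protein of tight junctions. Its summits lay 371 and 589 bp downstream of a TSS, inside an intron, with signal values of 7.99 and 19.2. The stronger of them read 13.5 in replicate 1 and 5.52 in replicate 2, neither held the motif, and neither is in the conservative list, a shorter selection by the authors that leaves out some of these peaks and holds others. Esam was the gene just inside the 1 kb limit. C1qc was just outside it, with a site of 331 at 1078 bp upstream.

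The remaining 12 microglia genes and 12 vascular genes had no called site within 1 kb of a TSS. The list called on both libraries together, which has a fixed length of 300000 peaks and reaches into weak signal, placed a summit there in 5 of the 12 microglia genes and 7 of the 12 vascular genes. Counting the genes with called sites, 7 of 14 microglia genes and 10 of 15 vascular genes had any summit of that list, against 68.5% of all protein-coding genes. The signal values of these uncalled peaks ran from 6.24 to 15.0 in the microglia genes and from 5.34 to 22.3 in the vascular genes. They overlap those of the called Ocln summits, 7.99 and 19.2, so calls did not follow signal value alone. Summits of both replicates lay within 100 bp of each other in 2 of the 12 microglia genes (Cx3cr1 and C1qc) and 1 of the 12 vascular genes (Abcc9), against 24.2% of protein-coding genes with no called site. The Abcc9 peak was the strongest of them. Its summit lay 13 bp from a TSS with a signal value of 22.3. The strongest peak within 1 kb read 16.4 in replicate 1, with its summit 7 bp from a TSS, and 15.3 in replicate 2, with its summit 363 bp from a TSS, so these need not be the same peak. Tmem119, C1qb, Trem2, Itgam, Spi1, Tie1 and Pdgfrb had no peak within 1 kb in any of these lists.

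The receptors and adaptors of microglia had no called site at their starts and differed in the sites around them. Cx3cr1 encodes the fractalkine receptor. Its nearest site lay 3.48 kb upstream with a signal value of 225 and no motif match, and read 120.1 in replicate 1 and 106 in replicate 2. The Cx3cr1 window held 20 summits, the most of the 29 genes. Of these, 11 lay inside the GENCODE gene, which runs over 168 kb because of a long transcript that crosses Wdr48, Gorasp1, Ttc21a, Csrnp1 and Xirp1. The RefSeq gene runs over 19.6 kb and holds 0 summits, so these sites cannot be assigned to Cx3cr1 rather than to its neighbours. The site with 0 mismatches printed above, in that long intron and in an intron of Xirp1, had a signal value of 253 and read 137 in replicate 1 and 112 in replicate 2.

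P2ry12 encodes the ADP receptor that steers microglial processes towards injury. It had 2 sites in its window, of 246 and 249, both beyond its 3′ end. The nearer lay in an untranslated region of P2ry13, which itself lies in an intron of Med12l, and read 123 in replicate 1 and 122 in replicate 2. Csf1r encodes the receptor for CSF1 and IL-34 on which microglial survival depends. It had a single site inside the gene, in an intron, of 48.9 and with no motif match, which read 25.2 in replicate 1 and 23.4 in replicate 2. Trem2 encodes a receptor that senses lipids and debris. Its window held 1 site, 9.33 kb upstream, of 193 and with no match, and it read 103 in replicate 1 and 88.0 in replicate 2. Tyrobp encodes DAP12, the signalling adaptor of Trem2. Its window held 6 sites, from 16.9 to 363, and none of them in the gene. Itgam encodes the integrin chain CD11b. It had 1 intronic site of 77.7 with no match, and a site 39.5 kb upstream of 40.9 that read 29.8 in replicate 1 and 11.7 in replicate 2.

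The complement genes C1qb, C1qc and C1qa lie side by side on chromosome 4 and share their sites. Between C1qb and C1qc, 3.62 kb apart, there was no summit. Between C1qc and C1qa, 2.85 kb apart, there was 1 summit with a signal value of 331, which read 174 in replicate 1 and 159 in replicate 2. It is the C1qc site printed above and stands in the top 10% of the optimal list. On the far side of C1qb lay sites of 88.5 and 232, with motifs on opposite strands. The windows of the 3 genes held 7 or 8 summits each and largely overlap, so each shared site was counted once among the 77, while the counts of genes take C1qa, C1qb and C1qc as 3 genes.

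Among the other microglia genes, Aif1, which encodes the actin-binding protein IBA1, had sites on both sides of its 5.08 kb. The site 2.69 kb upstream had a signal value of 176 with 0 mismatches, and read 98.3 in replicate 1 and 77.7 in replicate 2. Of its sites beyond the 3′ end, the nearest had a signal value of 184 and the next 211. Cd68, which encodes a lysosomal glycoprotein, had 10 sites in its window and 0 in the gene. The nearest, of 142, lay 3.34 kb downstream of the TSS of Cd68 and 84 bp from the TSS of Mpdu1, and read 75.2 in replicate 1 and 67.8 in replicate 2. Tmem119, a membrane protein used to tell microglia from other macrophages, had 6 sites, the nearest 11.7 kb upstream of 40.7 and the strongest of 320.

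Spi1 encodes PU.1, the transcription factor that sets the myeloid programme, and had the strongest site of all 29 genes. That site lay 11.8 kb before the annotated start of the gene, 25.5 kb upstream of the Spi1 TSS and 183 bp from the TSS of Slc39a13. It had a signal value of 469, and read 246 in replicate 1 and 225 in replicate 2. Inside Spi1 lay an intronic site of 348, which read 185 in replicate 1 and 166 in replicate 2, and a site in a coding exon of 294, which read 156 in replicate 1 and 138 in replicate 2. The motifs of the intronic and exonic sites lay on opposite strands. Irf8, beyond its promoter site, had a pair of sites of 332 and 323 at 39.8 and 44.0 kb past its 3′ end, with motifs on the same strand.

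The endothelial junction genes ranged from 2 sites to 10. Cldn5 encodes claudin-5, the main tight junction protein of brain endothelium. It had 2 sites, both in an intron of Cdc45, and the stronger, of 288, lay 22.2 kb downstream of its TSS and read 151 in replicate 1 and 138 in replicate 2. Pecam1 encodes the adhesion molecule CD31. It had intronic sites of 151 and 72.1, of which the RefSeq gene of 61.1 kb holds 1 and the GENCODE gene of 96.4 kb both. Cdh5 encodes VE-cadherin. It had 9 sites, among them 1 of 125 at 2.50 kb upstream that read 67.8 in replicate 1 and 57.2 in replicate 2. The most uneven of the 153 sites also lay upstream of Cdh5, at 49.4 kb, and read 33.8 in replicate 1 and 9.76 in replicate 2. Esam, beside its promoter site, had 2 intronic sites, the stronger of 123 and without a match. Ocln had a site of 358 at 3.83 kb past its 3′ end, 118 bp from the TSS of Gtf2h2.

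The receptors for angiopoietins and VEGF ranged from a bare window to a well-filled one. Kdr, which encodes the main VEGF receptor of endothelium, had 1 site in its window, 48.0 kb upstream, of 59.6 and with 0 mismatches, which read 31.1 in replicate 1 and 27.0 in replicate 2. Flt1, which encodes another VEGF receptor, had 5 sites inside its 164 kb, and their signal values ran from 21.5 to 284. The strongest, printed above, had 0 mismatches and read 143 in replicate 1 and 137 in replicate 2. Tek, which encodes the angiopoietin receptor TIE2, had 1 site in 136 kb, an intronic site of 42.5 with no match that read 14.2 in replicate 1 and 28.7 in replicate 2. The related gene Tie1 had 3 sites, all past its 3′ end and from 32.9 to 103.

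Vwf, which encodes von Willebrand factor, the clotting protein stored in endothelium, had the most sites inside the gene of the vascular set. Its 7 sites ran from 38.8 to 380, with a median of 282. The strongest, of 380 and in an intron, read 201 in replicate 1 and 179 in replicate 2, and another intronic site of 355 read 191 in replicate 1 and 166 in replicate 2. Both motifs lay on the minus strand. A site of 282 in a coding exon and a site of 291 in an intron of Vwf had no match. Slc2a1 had no site inside the gene, and 2 sites of about equal strength, 140.0 and 139, shortly past its 3′ end.

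Of the 4 pericyte genes, 0 had a called promoter site, against 36.8% of all protein-coding genes, and 3 had a site inside the gene, against 53%. Pdgfrb encodes the PDGF receptor that recruits pericytes to vessels. It had an intronic site of 374 with 0 mismatches, which read 199 in replicate 1 and 177 in replicate 2. Csf1r, a microglia gene, lies 15.5 kb past the 3′ end of Pdgfrb. The gap holds 1 site of 41.9, which read 28.1 in replicate 1 and 12.7 in replicate 2, and 4 sites counted for both classes come from this locus. Rgs5, a regulator of G-protein signalling in mural cells, had 2 sites, both in introns and both with motifs on the plus strand. The stronger, of 234, read 124 in replicate 1 and 110 in replicate 2, and the weaker, of 61.3, read 40.3 in replicate 1 and 19.7 in replicate 2. Kcnj8 and Abcc9 encode the subunits of an ATP-sensitive potassium channel and lie 16.2 kb apart with no site between them. Abcc9 had 1 intronic site of 33.3. On the far side of Kcnj8 stood the site of 305 printed above, which read 155 in replicate 1 and 149 in replicate 2.

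Gene length and base composition differed between the classes and move with the shares of genes with a site. Microglia genes had a median length of 7.27 kb, against 42.9 kb for vascular genes and 17.4 kb for all protein-coding genes. Among genes under 10 kb, 0 of 8 microglia genes and 0 of 2 vascular genes had a site inside, against 24.4% of protein-coding genes of that length. Between 10 and 50 kb, 2 of 4 microglia genes and 4 of 7 vascular genes had one, against 58.1%. Over 50 kb, 2 of 2 microglia genes and 6 of 6 vascular genes had one, against 88.2%. The long microglia genes are Cx3cr1 and Itgam, and the first holds no site in its RefSeq bounds.

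For promoters, protein-coding genes were divided into 3 ranges of GC content, each with a similar number of genes. GC content was read in the 1 kb around the annotated 5′ end of the gene. That end can differ from the TSSs at which sites were called, as it does for Spi1 and Csf1r. A site was found in 12.9% of genes in the lowest range, 39.6% in the middle and 57.6% in the highest. The lowest range held 4 microglia and 4 vascular genes, none with a site. The middle range held 9 microglia genes, of which 1 had a site (C1qa), and 6 vascular genes, of which 1 had a site (Esam). The highest range held 1 microglia gene, which had a site (Irf8), and 5 vascular genes, of which 2 had a site (Slc2a1 and Ocln). Cldn5, Flt1 and Kdr were the genes of the highest range without a called site. No test was made of these counts.

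**Figure D2:**
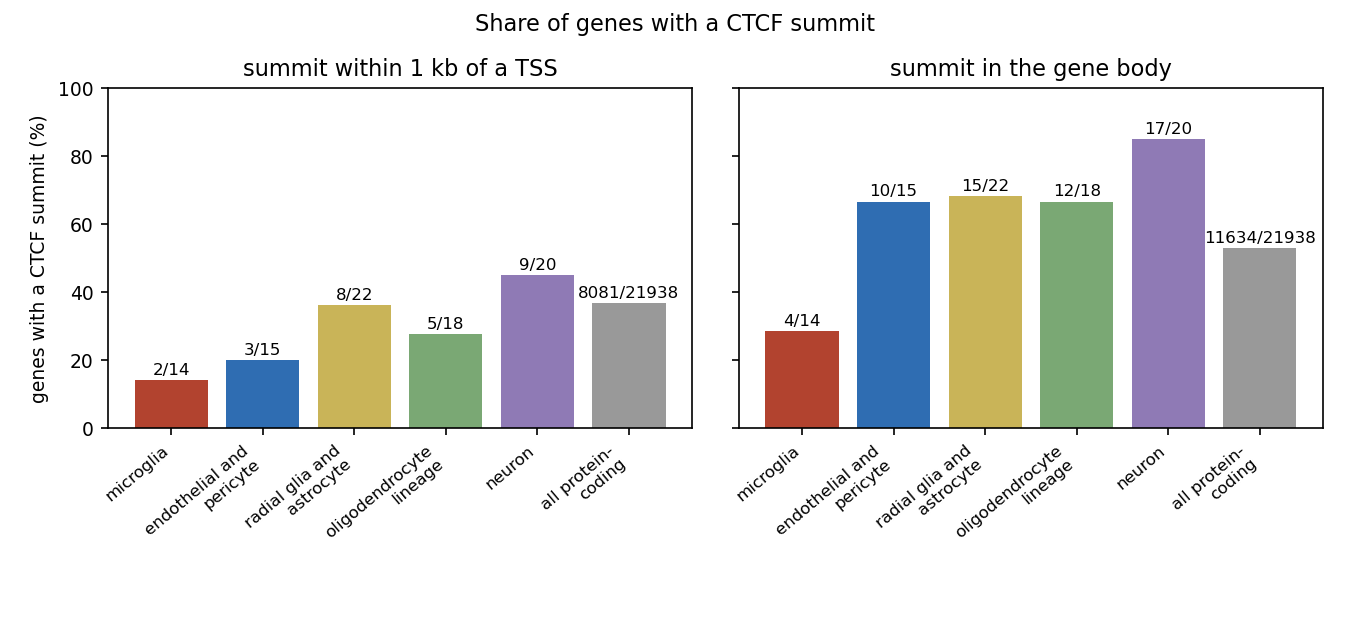
Bars give the percentage of genes with a CTCF summit within 1 kb of a TSS (left) or inside the gene (right) for microglia genes, vascular genes, 3 lists of other brain cell types and all protein-coding genes, with the number of genes above each bar. The microglia and vascular bars on the left, at 14.3% and 20%, are the lowest, and the microglia bar on the right stands at 28.6%.

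Other brain cell types gave a setting for these counts. A summit within 1 kb of a TSS was found in 8 of 22 genes of radial glia and astrocytes, led by Nes with a signal value of 204. It was found in 5 of 18 genes of the oligodendrocyte lineage, led by Myrf with 228, and in 9 of 20 neuron genes, led by Elavl4 with 315, against 36.8% of all protein-coding genes. The strongest promoter site of the microglia genes, at Irf8, had 48.9, and that of the vascular genes, at Slc2a1, had 84.2. A summit inside the gene was found in 15 of 22, 12 of 18 and 17 of 20 genes of these lists, against 53% of all protein-coding genes. Within the gene or 50 kb of it, every gene of these 3 lists had a summit, as did every microglia and vascular gene. The lists differ in gene length, from a median of 16.9 kb in the oligodendrocyte lineage and 17.5 kb in radial glia and astrocytes to 56.4 kb in neurons, and the part of length in these counts was not tested.

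Counted per length, the microglia windows held more sites, with overlapping intervals. The 77 summits fell in 1600 kb of microglia genes and flanks, which gives 4.81 per 100 kb (95% exact Poisson interval 3.80 to 6.01). The 80 summits of the vascular genes fell in 2359 kb, which gives 3.39 per 100 kb (2.69 to 4.22), and windows of all protein-coding genes together gave 2.97. By gene, the median was 5.66 per 100 kb for microglia genes, 3.20 for vascular genes and 3.78 for all protein-coding genes. It was 5.68 for the oligodendrocyte lineage, 4.24 for neuron genes and 2.90 for radial glia and astrocyte genes. The further genes described below had 3.92 for microglia and 4.08 for vessels. Intervals cover counting error only, and neighbouring genes share sites. Of the 77 microglia sites, 12 lay within 1 kb of the TSS of a gene outside the list, as did 7 of the 80 vascular sites. The nearest protein-coding TSS was that of a gene of the same class list for 20 of the 77 microglia sites and 36 of the 80 vascular sites. A site inside a listed gene can lie nearer the TSS of another gene, as the exonic site of Spi1 does to that of Mybpc3.

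Strong and weak sites occurred in both classes. Signal values ran from 16.9 to 469 around microglia genes, with a median of 134 (95% interval 69.6 to 206), and from 7.99 to 380 around vascular genes, with a median of 60.4 (42.3 to 95.4). In the top 10% of the optimal list stood 15 of 77 microglia sites (19.5%) and 10 of 80 vascular sites (12.5%). Of the microglia sites 73 were also in the conservative list (94.8%), as were 70 of the vascular sites (87.5%), against 87.4% of the optimal list. The intervals of the medians overlap, and sites within a locus are not independent units. Over the sites of the conservative list, the microglia median was 88.5 and the vascular median 60.4.

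**Figure D3:**
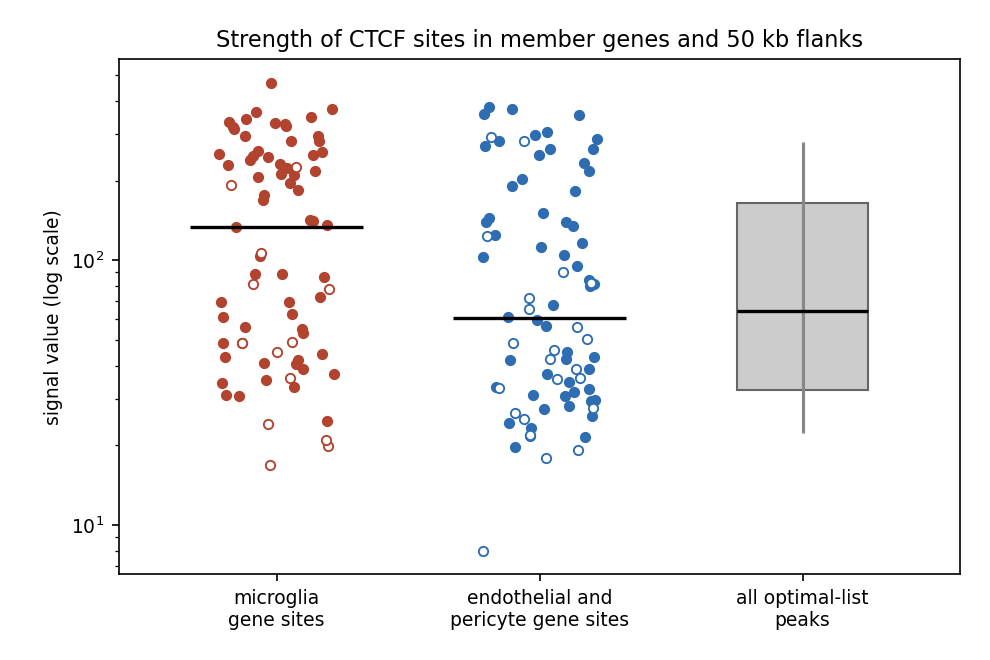
Points are the CTCF sites in and within 50 kb of the microglia genes (left, 77 sites) and vascular genes (middle, 80 sites), by signal value on a log scale, with open points for sites without a motif match and black lines for medians. The box on the right gives the median, the quartiles and the span from the 10th to the 90th percentile of all optimal-list peaks. The medians are 134, 60.4 and 64.3 from left to right.

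The CTCF core motif was found at 64 of 77 microglia sites (83.1%, 95% Wilson interval 73.2% to 89.9%) and at 57 of 80 vascular sites (71.2%, 60.5% to 80.0%). It was found at 67.2% of the optimal list, and in 3.31% and 3.39% of windows 1000 bp to either side of its summits. The intervals treat sites as independent, which sites within a locus are not, and 4 sites are counted in both classes. No test was made of these shares. Sites with the motif had the higher median signal value in each set. The medians were 173 with and 48.9 without in microglia genes, 84.2 with and 42.5 without in vascular genes, and 92.1 with and 38.3 without in the optimal list. Strong exceptions without a match included the sites of 291 and 282 in Vwf, 225 upstream of Cx3cr1 and 193 upstream of Trem2. Of the 153 separate sites, 20 had 0 mismatches.

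A form of the core motif recurred at sites of many of these genes, shown here by examples from 5 genes in GRCm38.
Flt1, intron, chr5:147655932-147655981, + strand: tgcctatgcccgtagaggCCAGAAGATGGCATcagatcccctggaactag
Flt1, intron, chr5:147579329-147579378, - strand: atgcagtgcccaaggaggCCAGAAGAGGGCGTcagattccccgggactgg
Spi1, before the gene, chr2:91033163-91033212, + strand: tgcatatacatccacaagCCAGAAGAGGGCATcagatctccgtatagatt
Irf8, upstream, chr8:120723202-120723251, + strand: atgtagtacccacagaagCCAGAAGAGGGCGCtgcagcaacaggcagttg
Cdh5, upstream, chr8:104099108-104099157, + strand: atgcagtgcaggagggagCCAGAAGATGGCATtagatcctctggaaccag
Abcc9, intron, chr6:142659234-142659283, - strand: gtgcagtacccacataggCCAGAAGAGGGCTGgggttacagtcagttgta
The letters CCAGAAGNNGGC, which are the first 12 bases of the C1qa match with 2 positions left free (N), were searched on both strands within 50 bp of the summit, a form of the core motif chosen after the matches had been seen. They were found at 14 of 77 microglia sites (18.2%) and 13 of 80 vascular sites (16.2%), against 10.3% of the optimal list. The C1qa promoter site is one of them by construction, because the letters were taken from it. Over the 27 sites with these letters the median signal value was 42.3, against 106 over the other sites of the 29 genes, and in the optimal list the medians were 42.6 with and 69.3 without. More than 50% of the peak was masked as repeat DNA at 15 of the 27 sites (55.6%), against 7.94% of the others, and in the optimal list at 67.5% with and 6.28% without. Repeats of the B2 family are known to carry CTCF motifs in the mouse. The genome used marks repeats without naming them, so their family was not tested.

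The direction of the motifs on each side of a gene was read from the nearest site with a match outside it. The pair pointed towards each other, the arrangement known from loop anchors, in 4 of 14 microglia genes (Tmem119, Tyrobp, Itgam and Irf8) and 10 of 15 vascular genes, against 28.7% of protein-coding genes. The vascular genes were Cldn5, Pecam1, Cdh5, Tek, Flt1, Esam, Ocln, Rgs5, Abcc9 and Kcnj8. Such a pair also flanked 9 of 22 radial glia and astrocyte genes, 5 of 18 oligodendrocyte lineage genes and 9 of 20 neuron genes. Of the further genes described below, it flanked 5 of 20 microglia, 10 of 24 vascular and 6 of 10 ligand genes. Among the 29 genes, both motifs ran the same way in 8 microglia and 3 vascular genes, against 46.2% of protein-coding genes. They pointed apart in 2 and 2, against 25.1%. The spans between the pair had a median of 59.5 kb for microglia genes, 134 kb for vascular genes and 106 kb for all protein-coding genes. Some anchors were weak, such as the site of 19.8 upstream of Abcc9, and Kcnj8 and Abcc9 share the anchor of 305. Allowing only 1 mismatch left 6 vascular genes with such a pair, against 26.9% of protein-coding genes. Peak lists do not show whether a loop forms.

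The replicates gave close values at most of these sites. After the log2 ratio of replicate 1 to replicate 2 was centred on the median of all peaks, its SD was 0.36 over microglia sites, 0.50 over vascular sites and 0.52 over the optimal list. The centred ratio passed 1 in either direction at 8 of the 153 sites (5.23%), against 6.75% of optimal-list peaks with a value in both replicates. Of the 8, 6 were higher in replicate 1 and 2 in replicate 2, and none had a signal value above 44.9. The site upstream of Cdh5 had a centred log2 ratio of 1.59 and the intronic site of Tek a ratio of -1.21.

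**Figure D4:**
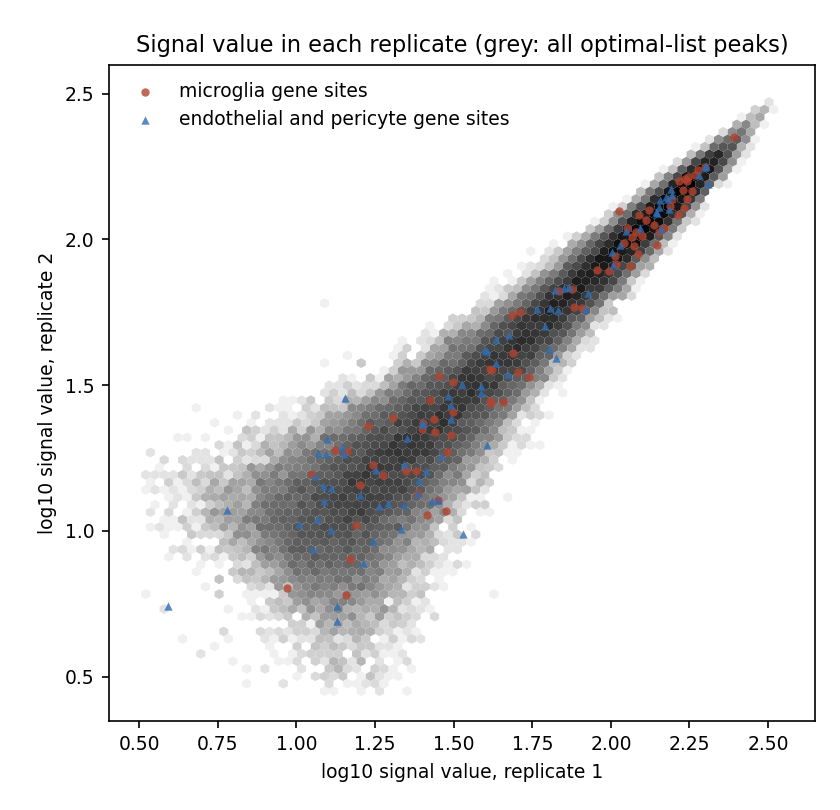
Each point is a site by its log10 signal value in replicate 1 (horizontal) and replicate 2 (vertical), with circles for microglia gene sites, triangles for vascular gene sites and grey hexagons, darker with more peaks, for the optimal list. Both sets follow the grey band, and the 8 sites that part from it by a centred log2 ratio above 1 are weak ones.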

How the data were processed

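Per the labels, CTCF ChIP-seq was run on 2 libraries of 1 group and peaks are on mm10. The authors deposited peak lists with a signal value, the −log10 of a q-value, an IDR (irreproducible discovery rate) score in the optimal and conservative lists, and a summit offset. For the aligner, the caller and the depth: not given in the sources used here.

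Summits were assigned to GENCODE M21 basic genes, with TSSs at the 5′ ends of transcripts. A replicate's value at a site was that of its overlapping peak with the nearest summit. Sites shared by genes of a class were counted once. The genome was RefSeq's GRCm38.p6. The motif scan and the assignment of summits were checked on simulated data. Python 3.11.15, numpy 2.4.6, pandas 2.3.3, scipy 1.17.1, pysam 0.24.0, samtools 1.23.1 and matplotlib 3.10.9 were used.

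Members and lists were chosen with earlier results of these data known. Named were all members, up to 3 genes per other list with the strongest promoter site, and, after their values were seen, genes that share or neighbour a member's site. Some genes this rule selects are not reported here. With 1 group, no test was made. Alternatives were the conservative list, the stronger sites, each replicate alone, other distances, motif thresholds and gene models.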

Additional observations from a re-analysis of the deposited data

How the results depend on the processing

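The conservative list, other distances, single TSSs, peak overlap, each replicate alone, RefSeq gene bounds and other motif settings were tried. The RefSeq bounds and the motif and list settings of the flanking pairs were added after the data were seen. Of 82 values, 12 moved, which for counts of genes means by more than 1.5 times and for densities, medians and motif shares beyond the 95% interval. The microglia median signal value, 88.5 with the conservative list against 134, stayed inside its wide interval and is not among the 12. Nor is the count of vascular genes with a site inside, which was 10. It was 7 with the conservative list (52.3% of all protein-coding genes) and 8 without replicate 1 (53.2%). With the stronger sites of the optimal list only, those at or above its median, 0 microglia and 1 vascular genes had a site within 1 kb (16.9% of all protein-coding genes), 6 vascular genes had a site inside (36%), and densities were 3.06 per 100 kb for microglia and 1.65 for vascular genes. Within 500 bp of a TSS 1 microglia gene had a site (30.4% of all genes), and within 5 kb 6 did (52.3%). With at most 1 mismatch the motif was found at 57.1% of microglia and 42.5% of vascular sites (36.5% of the optimal list), and with at most 3 at 96.1% and 92.5% (88%). With at most 1 mismatch 6 vascular genes had convergent flanking motifs. For all moved values but the flanking pairs, the setting fixed the direction of the change, because it only removed or only added peaks, distance or mismatches. The cause of the change in flanking pairs was not tested. With either replicate left out, the strongest 56470 peaks of the other replicate's own list were used, without the IDR threshold. Both the library and the selection of peaks thus changed. Microglia genes with a site within 1 kb stayed at 2, and vascular genes ran from 3 to 4 (Abcc9 gained, Ocln lost without replicate 1). The RefSeq bounds gave 3 microglia genes with a site inside. No paired analysis was possible because the series has 1 group. Depth was not given, so a gene without a called site cannot be told from one below detection.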

Other observations

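Further genes of the same cell types, named apart from the 29, included some with stronger promoter sites than the 29. A promoter site, with its summit within 1 kb of a TSS, was found in 4 of 20 further microglia genes, against 36.8% of all protein-coding genes. Among them were Olfml3 with a signal value of 348 and Mertk, a receptor for the uptake of dying cells, with 222. A summit inside the gene was found in 9 of the 20, against 53% of all protein-coding genes. Of 24 further vascular genes, 4 had a promoter site, against 36.8% of all protein-coding genes. They included Foxs1, a forkhead factor, with 86.8, Erg, an endothelial ETS factor, with 75.8, and Jam2, a junctional adhesion molecule, with 35.9. A summit inside the gene was found in 14 of the 24 (58.3%), near the 53% of all protein-coding genes.

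Of 10 genes for ligands of the receptors above, 4 had a promoter site, close to the 36.8% of all protein-coding genes, and 8 a site inside the gene, against 53%. Vegfa, the main ligand of Kdr and Flt1, had a promoter site of 445, higher than any promoter site of the 29 genes. Vegfc had 99.9, and Csf1, a ligand of Csf1r, had 31.3. Angpt2, a ligand of Tek, had 23.2 and is named because it completes the 4.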
